A study of Rattus norvegicus with 9 samples.

Results

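The 8 genes described here encode paired isozymes of 4 glycolytic steps: the hexokinases Hk1 and Hk2, the phosphofructokinases Pfkl and Pfkp, the aldolases Aldoa and Aldoc, and the pyruvate kinases Pklr and Pkm. They were taken by gene name from a table of 32883 genes measured in rat liver, and each name matched 1 gene. The study asked which liver genes change during diethylnitrosamine (DEN) carcinogenesis and under Pien-Tze-Huang (PZH), a Chinese patent medicine. RNA of 9 male Sprague-Dawley rats was sequenced, 1 library per rat, with 3 normal control rats (N1, N12 and N3), 3 DEN model rats (M13, M17 and M24) and 3 PZH administration rats (G27, G28 and G42). The normal control rats had a normal diet and no DEN, whereas the DEN model and PZH administration rats both received 0.01% DEN by weekly intraperitoneal injection over 16 weeks, and the latter were also given PZH. All rats were fasted before the livers were taken.

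The groups were read from the first letter of each rat's name and from the study's methods, because the deposited treatment tag says PZH for the M rats as well. Neither the PZH dose, the week of collection nor the age is stated for the sequenced rats. The study killed rats of each group at several weeks up to week 16, so the disease stage may differ among the sequenced rats. Every sample is labelled liver and none is labelled tumour, so the values below compare whole liver of DEN-treated and untreated rats and not dissected nodules with surrounding tissue.

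Glycolysis splits glucose into pyruvate, and most of its steps can be run by more than one isozyme. Hepatocytes of the adult liver rely on forms fitted to an organ that both takes up and makes glucose, among them liver phosphofructokinase (Pfkl) and liver pyruvate kinase (Pklr), which is inhibited under glucagon. Fetal liver, most other tissues and many liver tumours use the hexokinases Hk1 and Hk2, platelet-type phosphofructokinase (Pfkp), aldolase A (Aldoa) and the muscle or M2 forms made from Pkm. Aldolase C (Aldoc) is known mainly from the brain.

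Total counts ran from 16115709 to 16412520 in the normal control rats, from 15259441 to 16641954 in the DEN model rats and from 14922973 to 27161496 in the PZH administration rats, the deepest being G27. Levels are given as CPM, the counts scaled to an equal library size by TMM (trimmed mean of M values), with factors of 0.731 to 0.799, 1.21 to 1.58 and 0.863 to 0.941 in the 3 groups. A count of 3 corresponded to 0.125 to 0.252 CPM, a floor that covers counting error only. With library totals as the only scaling, the median log2 difference over the genes moved by 0.86 between DEN model and normal control rats, by -0.67 between PZH administration and DEN model rats and by 0.23 between PZH administration and normal control rats, so the CPM levels and fold changes below are relative to the TMM scale. FPKM values, which carry the library totals, are used for shares, ratios and orders within a rat or group and not for changes between groups.

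The summed markers of 3 liver cell types separated the DEN model from both other groups. Between DEN model and normal control rats 3 of 8 hepatocyte markers (Alb, Ttr and Tat) were lower, and 6 of 6 cholangiocyte or progenitor and 7 of 8 stellate cell markers were higher in edgeR's test. Of all tested genes 45.8% differed in this test (adjusted p under 0.05). The summed level of 8 of 8 hepatocyte markers, Alb among them, was 167274 to 178698 CPM in normal control, 35902 to 82792 CPM in DEN model and 142212 to 174200 CPM in PZH administration rats. That of 6 of 6 cholangiocyte or progenitor markers (such as Krt19) was 13.4 to 21.1, 235 to 756 and 80.9 to 108 CPM, and that of 8 of 8 stellate cell or myofibroblast markers (such as Col1a1) was 195 to 323, 1050 to 3210 and 599 to 725 CPM. Among the DEN model rats, M17 had the highest hepatocyte and the lowest cholangiocyte and stellate sums. The sums of 5 endothelial markers with a row, out of 6, overlapped between the groups at 335 to 411, 219 to 415 and 295 to 414 CPM, and those of 6 of 8 leukocyte markers were 218 to 348, 339 to 458 and 182 to 269 CPM. Both sums join markers that moved apart between DEN model and normal control rats in edgeR's test. Of the endothelial markers 2 were higher (Cdh5 and Vwf) and 2 lower (Kdr and Lyve1). Of the leukocyte markers 2 were higher (Ptprc and Cd3e) and 1 lower (Cd14). The 4 of 6 red cell markers with a row summed to 120 to 328, 90.5 to 772 and 68.8 to 135 CPM. The 4 skeletal muscle markers stayed at or under 1.21 CPM in sum, with Ckm at 0 in every rat, and the 4 brain markers stayed at or under 14.3 CPM, with Snap25 at 0. The part of these cell type differences in the isozyme results was not tested, and in bulk tissue fewer cells of a type and less RNA per cell cannot be told apart.

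In the DEN model livers 6 of the 8 isozyme genes were higher than in normal control (Hk1, Hk2, Pfkp, Aldoa, Aldoc and Pkm), Pklr was lower, and Pfkl did not pass the test. A gene was called when its Benjamini-Hochberg adjusted p from edgeR's quasi-likelihood F test was below 0.05. The 7 calls stand beside 45.8% of all 14255 tested genes called in this comparison, 25.3% higher and 20.5% lower. With library totals in place of TMM factors 8126 genes were called higher and 958 lower, and all 8 isozyme genes were called, 7 higher and Pklr lower. In each of the 7 genes the groups did not overlap, which held for 58.8% of all tested genes (31.4% above and 27.4% below). The 8 genes had a median log2 fold change of 2.86, against 0.03 over all tested genes. The study's own limits ask for a log2 change of more than 2 in either direction and P below 0.001 without adjustment, and 3 of the 8 met them (Hk1, Pfkp and Pkm, all higher), where 12.3% of all tested genes did (8.81% higher and 3.49% lower).

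In the PZH administration livers the same 7 genes differed from the DEN model group, each with the opposite sign: Pklr was higher and Hk1, Hk2, Pfkp, Aldoa, Aldoc and Pkm were lower. This comparison called 19.1% of 14272 tested genes, 8.72% higher and 10.3% lower (556 genes higher and 5696 lower with library totals), and 40.8% of them did not overlap between the groups (18.4% above and 22.5% below), as the 7 isozyme genes did not. The 8 genes had a median log2 fold change of -1.83, against 0.01 over all tested genes. Pfkp and Pkm, 2 of the 8, met the study's limits downward, as did 1.35% of all genes (1.08% upward, 2.43% in all). Both comparisons use the same 3 DEN model rats, so opposite signs in them are not independent of each other.

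The calls after PZH were lost without the DEN model rat M13, while the directions were not. Without it, 0 of the 8 genes were called in edgeR, with adjusted p of 0.051 to 0.097 for the 7 genes, although 7 kept an unadjusted p below 0.05 and DESeq2 called 6. The log2 fold changes were then 1.35 for Pklr and -2.27 to -1.27 for the other 6 genes, and the calls among all genes dropped from 2722 to 271. Leaving out M24, G28 or G42 left 5 of the 8 called, the 2 lost being Hk2 and Aldoc each time (adjusted p of 0.06 to 0.11 in edgeR's test). Without G27 the count stayed at 7, with Hk2 lost and Pfkl gained.

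Between PZH administration and normal control rats 1 of 7 genes tested was called in edgeR's test, Hk1 (higher), where 5.21% of 13348 tested genes were called (4.07% higher and 1.15% lower, with 818 genes higher and 91 lower under library totals), and Aldoc had too few counts to be tested. In 4 of the 7 (Hk1, Pfkp, Aldoa and Pkm) every PZH administration rat lay above every normal control rat, as in 13.6% of all tested genes (24.2% without overlap in either direction). The 7 genes had a median log2 fold change of 0.68, against -0.02 over all tested genes. By the study's limits 0 of them passed, where 2.32% of all genes did, although 4 had an unadjusted p below 0.05 in edgeR and DESeq2 called 2 after adjustment (Hk1 and Pfkp).

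**Figure D1:**
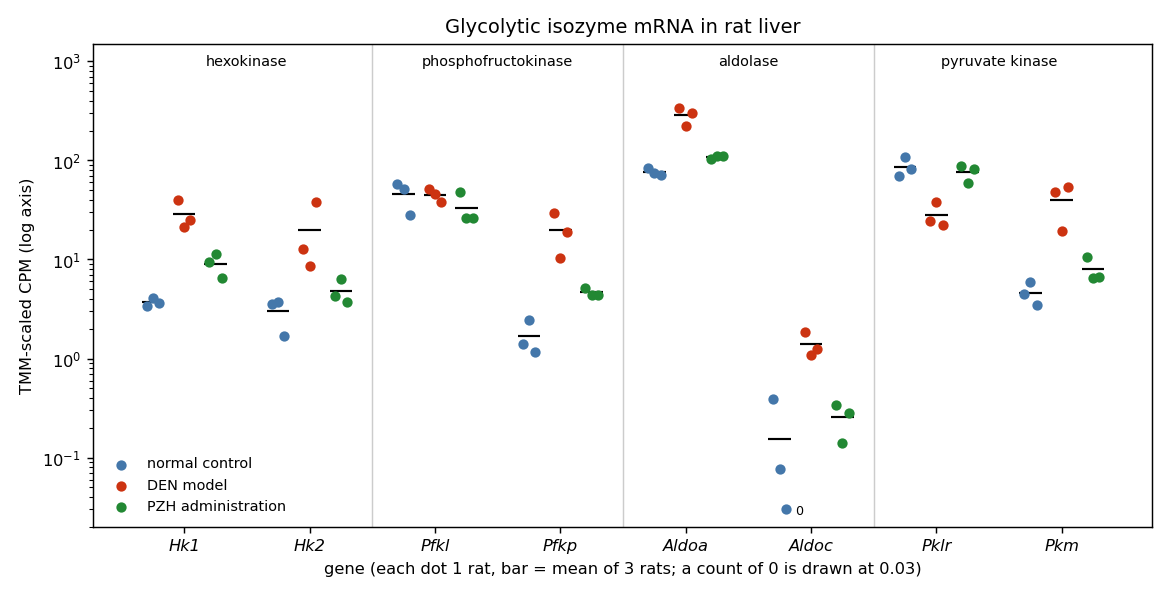
Level of each isozyme gene in each rat, in TMM-scaled CPM on a log axis, with the rats of the 3 groups side by side; each dot is 1 rat and each bar the mean of 3 rats. The DEN model dots lie above the normal control dots for Hk1, Hk2, Pfkp, Aldoa, Aldoc and Pkm, below them for Pklr and among them for Pfkl, and the single Aldoc count of 0 (rat N3) is drawn at the foot of the axis.

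Pyruvate kinase makes pyruvate and ATP in the last step of glycolysis. Pklr, gene ENSRNOG00000020420, lies on chromosome 2 from 188449210 to 188459592 in the coordinates of the deposited table, whose genome build is not given in the sources used here. It was at 69.7, 109 and 81.2 CPM in N1, N12 and N3, at 24.5, 38.2 and 22.4 CPM in M13, M17 and M24, and at 87.0, 59.4 and 81.4 CPM in G27, G28 and G42. All DEN model rats were below all others, and the normal control and PZH administration rats overlapped. The log2 fold change was -1.60 ± 0.26 (SE) in DEN model against normal control rats, a 3.02-fold lower level (adjusted p = 0.0019 in edgeR's quasi-likelihood test). Against the DEN model, PZH administration rats were 2.72-fold higher, with a log2 fold change of 1.45 ± 0.26 (adjusted p = 0.014 in edgeR's test). Against normal control rats the difference after PZH was -0.18 ± 0.24 (adjusted p = 0.76 in edgeR's test), and its sign turned with library totals in place of TMM factors, to 0.037.

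Pkm, gene ENSRNOG00000011329 on chromosome 8 from 64481172 to 64502722, went the other way. Its level was 4.45, 5.88 and 3.44 CPM in N1, N12 and N3, 48.0, 19.3 and 53.5 CPM in M13, M17 and M24, and 10.7, 6.47 and 6.62 CPM in G27, G28 and G42. No pair of groups overlapped, and M17 was the lowest DEN model rat for Pkm and the highest for Pklr. Pkm was 8.85-fold higher in DEN model than in normal control rats (log2 fold change 3.14 ± 0.40, adjusted p = 0.00065 in edgeR's test). PZH administration rats were 4.94-fold lower than DEN model rats (log2 fold change -2.31 ± 0.40, adjusted p = 0.014 in edgeR's test). Their log2 difference of 0.80 ± 0.32 from normal control rats did not pass the test (adjusted p = 0.22 in edgeR's test).

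The Pkm counts are uncertain in size, because the table lists a gene named M2 pyruvate kinase-like (LOC100364062) that may share reads with Pkm. It held between 26 and 753 counts per rat, equal to 33.3% to 75.3% of the Pkm count of the same rat. On its own it was higher in DEN model than in normal control rats by 2.91 ± 0.41 on the log2 scale (adjusted p = 0.001 in edgeR's test). Counting both as Pkm, an alternative chosen after seeing the data, gave log2 fold changes of 3.05 and -2.34 in the first and second comparison, with adjusted p of 0.00068 and 0.014 in edgeR's test. Pkm also encodes several splice forms, and counts per gene do not separate them.

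Lengths are taken into account in FPKM (fragments scaled by transcript length and library size), the scale on which isozymes are set against each other. Pklr held 90.4% ± 1.8 (SD, n = 3) of the summed Pklr and Pkm FPKM in normal control rats, 29.1% ± 18.0 in DEN model rats and 82.8% ± 2.9 in PZH administration rats. The share of Pkm was 79.7%, 50.2% and 82.7% in M13, M17 and M24, against 7.82% to 11.3% in the normal control and 14.0% to 19.8% in the PZH administration rats. In M17 the isozymes stood level, and in M13 and M24 Pkm was the main form. With the copy counted as Pkm, its share became 19.3% ± 3.4 in normal control, 82.8% ± 12.4 in DEN model and 29.4% ± 7.4 in PZH administration rats.

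The sequences before the transcription starts of Pklr and Pkm are shown because these genes moved in opposite directions in the same livers. They are RefSeq windows of 250 bases before the start on build GRCr8, both on the plus strand, Pklr at chr2:176841014-176841263 and Pkm at chr8:68953385-68953634. Capitals mark matches to 3 patterns searched on both strands: TATAAA (the TATA box), GGGCGG (the GC box) and CACGGG followed after 5 bases by CCCGTG (the carbohydrate response element of Pklr, spelled with this sequence in view).
Pklr: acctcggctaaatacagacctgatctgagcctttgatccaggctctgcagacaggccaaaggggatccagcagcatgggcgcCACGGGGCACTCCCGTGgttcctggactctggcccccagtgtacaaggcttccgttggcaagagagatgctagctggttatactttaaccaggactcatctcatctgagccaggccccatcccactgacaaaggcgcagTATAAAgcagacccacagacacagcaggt
Pkm: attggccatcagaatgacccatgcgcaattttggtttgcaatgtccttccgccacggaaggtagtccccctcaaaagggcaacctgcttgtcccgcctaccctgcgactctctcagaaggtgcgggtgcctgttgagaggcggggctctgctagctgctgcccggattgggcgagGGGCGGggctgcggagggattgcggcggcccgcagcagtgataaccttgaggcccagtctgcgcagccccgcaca
In the Pklr window the carbohydrate response pattern begins at -168 and TATAAA at -29, counted back from the start, and no GC box was found. The Pkm window holds 1 GC box at -75 and none of the other patterns. Among 33469 windows of all genes, TATAAA occurs in 12.9%, GGGCGG in 30.5% and the carbohydrate response pattern in 1, that of Pklr. All 8 isozyme genes matched, with 11 windows in all, and Pklr had the only one of these with TATAAA. Bases G and C made up 56.4% of the Pklr and 63.2% of the Pkm window, against a median of 51.2% over all windows. The core of hypoxia response elements, ACGTG, was found in neither of these windows, and occurs in 16.6% of the windows of all genes. Among the isozyme genes it was found before Aldoa, Aldoc and Hk1, beginning at -192, -31 and -245. The longer E box CACGTG, which contains ACGTG, occurs in 5.59% of all windows and in none of the 11.

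Phosphofructokinase catalyses the committed step of glycolysis. Pfkl, gene ENSRNOG00000001214 on chromosome 20 from 11393877 to 11415882, was at 57.5, 51.1 and 28.4 CPM in N1, N12 and N3, at 51.6, 45.7 and 38.0 CPM in M13, M17 and M24, and at 48.2, 26.1 and 26.1 CPM in G27, G28 and G42. The groups overlapped in all 3 comparisons. The log2 difference was 0.00 ± 0.26 between DEN model and normal control rats (adjusted p = 1 in edgeR's test), and its sign turned under several alternatives. With library totals in place of TMM factors it was 0.84 (adjusted p = 0.028 in edgeR's test), close to the 0.86 by which that scaling shifted the median gene. After PZH it was -0.40 ± 0.28 against the DEN model (adjusted p = 0.34 in edgeR's test), and with library totals it was -1.09 (adjusted p = 0.013).

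Pfkp, gene ENSRNOG00000017163 on chromosome 17 from 68511064 to 68559471, was scarce in normal liver at 1.41, 2.44 and 1.17 CPM in N1, N12 and N3. It reached 29.8, 10.4 and 18.9 CPM in M13, M17 and M24, and stood at 5.16, 4.38 and 4.42 CPM in G27, G28 and G42. No pair of groups overlapped, with the PZH administration rats between the others. The DEN model level was 11.8-fold that of normal control rats (log2 fold change 3.56 ± 0.46, adjusted p = 0.00063 in edgeR's test). After PZH it was 4.14-fold lower than in the DEN model (log2 fold change -2.05 ± 0.37, adjusted p = 0.014 in edgeR's test). Against normal control rats it was 2.79-fold higher after PZH, which missed the threshold in edgeR's test (adjusted p = 0.056) and passed it in DESeq2 (adjusted p = 0.0096).

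Liver phosphofructokinase stayed the main form in every rat. Of the summed FPKM of Pfkl, Pfkp and the muscle form Pfkm, Pfkl held 90.9% ± 4.2 (SD, n = 3) in normal control, 58.7% ± 8.6 in DEN model and 75.9% ± 5.7 in PZH administration rats. The share of Pfkp was 2.85% to 5.06% in normal control rats, 36.8%, 19.0% and 33.9% in M13, M17 and M24, and 10.8% to 15.2% in PZH administration rats. The shares of Pfkp did not overlap between any groups. Pfkm held 4.94% ± 3.15, 11.4% ± 1.0 and 10.5% ± 3.4, and its CPM was higher in the DEN model than in normal control (log2 fold change 1.81 ± 0.50, adjusted p = 0.018 in edgeR's test) and lower after PZH than in the DEN model (-1.02 ± 0.24, adjusted p = 0.026).

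The windows before the starts of Pfkl and Pfkp (RefSeq, GRCr8, plus strand, chr20:10663715-10663964 and chr17:68639563-68639812) are shown because the ratio of these genes, given below, did not overlap between any groups. Capitals mark the GC box on either strand.
Pfkl: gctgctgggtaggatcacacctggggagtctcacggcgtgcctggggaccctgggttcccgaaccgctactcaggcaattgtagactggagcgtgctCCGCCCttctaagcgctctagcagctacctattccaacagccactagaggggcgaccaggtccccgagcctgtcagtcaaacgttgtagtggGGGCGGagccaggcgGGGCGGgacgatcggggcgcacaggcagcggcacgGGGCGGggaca
Pfkp: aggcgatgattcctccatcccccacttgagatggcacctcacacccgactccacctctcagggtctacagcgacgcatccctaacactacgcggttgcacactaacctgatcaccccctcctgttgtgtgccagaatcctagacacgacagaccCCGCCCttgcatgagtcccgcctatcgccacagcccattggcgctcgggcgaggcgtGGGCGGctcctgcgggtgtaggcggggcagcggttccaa
GGGCGG begins at -153, -61, -46 and -11 in Pfkl and at -96 and -39 in Pfkp. None of the other patterns was found in either window. The share of G and C was 66.0% in Pfkl and 62.8% in Pfkp.

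**Figure D2:**
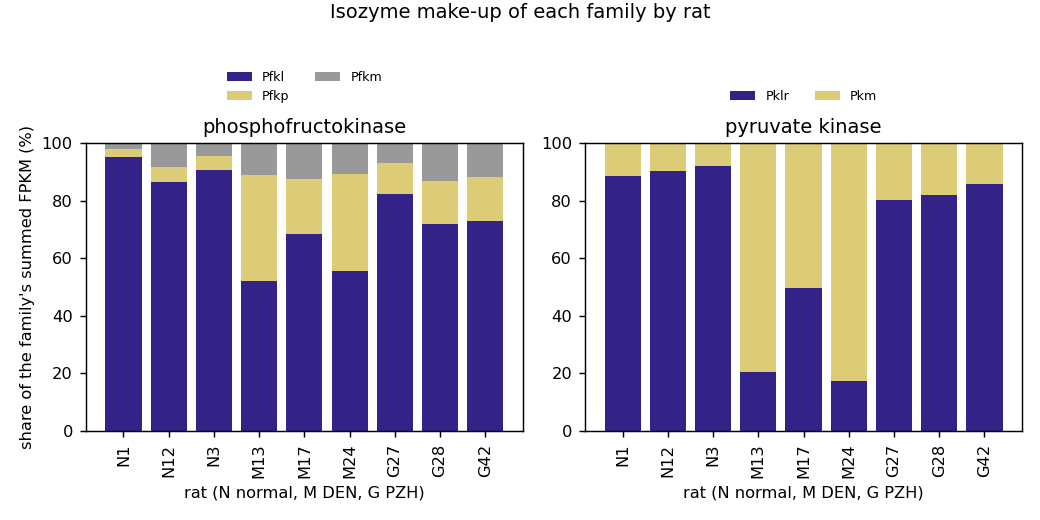
Make-up of the phosphofructokinase and pyruvate kinase families in each rat, as the percentage of the family's summed FPKM held by each isozyme, with the 9 rats along the axis. In the DEN model rats M13, M17 and M24 the Pfkp segment widens to 36.8%, 19.0% and 33.9% and the Pkm segment to 79.7%, 50.2% and 82.7%, least in M17.

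Hexokinases trap glucose in the cell as glucose 6-phosphate. Hk1, gene ENSRNOG00000046891 on chromosome 20 from 31912262 to 31956649, was at 3.36, 4.12 and 3.61 CPM in N1, N12 and N3, at 40.2, 21.3 and 25.1 CPM in M13, M17 and M24, and at 9.34, 11.3 and 6.55 CPM in G27, G28 and G42. No pair of groups overlapped. It was 7.88-fold higher in DEN model than in normal control rats (log2 fold change 2.98 ± 0.29, adjusted p = 0.00021 in edgeR's test). After PZH it was 3.12-fold lower than in the DEN model (log2 fold change -1.64 ± 0.30, adjusted p = 0.014 in edgeR's test) and 2.46-fold higher than in normal control rats (1.298 ± 0.294, adjusted p = 0.039). The last call was lost without G28, N1, N12 or N3, with adjusted p of 0.19, 0.15, 0.098 and 0.087 in edgeR's test.

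Hk2, the insulin-responsive form of muscle and fat, is encoded by ENSRNOG00000006116 on chromosome 4 from 113559427 to 113610243. It was at 3.59, 3.74 and 1.68 CPM in N1, N12 and N3, at 12.7, 8.62 and 38.1 CPM in M13, M17 and M24, and at 4.31, 6.33 and 3.70 CPM in G27, G28 and G42. The DEN model rats lay above both other groups, with M24 well above M13 and M17, and the normal control and PZH administration rats overlapped. Hk2 was 6.66-fold higher in DEN model than in normal control rats (log2 fold change 2.73 ± 0.58, adjusted p = 0.0058 in edgeR's test), and without M24 the log2 fold change was 1.85 (adjusted p = 0.0077). After PZH it was 4.08-fold lower than in the DEN model (log2 fold change -2.03 ± 0.55, adjusted p = 0.037 in edgeR's test). Without M24 the difference after PZH was -1.13 (adjusted p = 0.089 in edgeR's test).

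Hk3, a further hexokinase known from blood cells, did not pass the test in the first comparison (log2 difference 0.71 ± 0.58, adjusted p = 0.35 in edgeR's test) or the second (-0.85 ± 0.34, adjusted p = 0.11).

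Aldolase cleaves fructose 1,6-bisphosphate. Aldoa, gene ENSRNOG00000052802 on chromosome 1 from 198228387 to 198233588, was at 83.3, 74.2 and 71.4 CPM in N1, N12 and N3, at 341, 224 and 305 CPM in M13, M17 and M24, and at 102, 110 and 111 CPM in G27, G28 and G42. No pair of groups overlapped. It was 3.84-fold higher in DEN model than in normal control rats (log2 fold change 1.94 ± 0.22, adjusted p = 4e-04 in edgeR's test) and 2.64-fold lower after PZH than in the DEN model (-1.40 ± 0.22, adjusted p = 0.01). Against normal control rats its PZH administration level was 1.42-fold higher, which did not pass edgeR's test (adjusted p = 0.14). A retrogene of aldolase A in the table, Aldoart2, had a count of 0 in every rat.

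Aldoc, gene ENSRNOG00000011452 on chromosome 10 from 65586504 to 65590126, was near the floor. Its counts were 5, 1 and 0 in N1, N12 and N3, 44, 22 and 30 in M13, M17 and M24, and 8, 2 and 4 in G27, G28 and G42. The DEN model rats stood above all others. The fitted log2 fold change was 3.12 ± 0.80 in DEN model against normal control rats (adjusted p = 0.013 in edgeR's test), and without N12 the call was lost (adjusted p = 0.055). At so few counts the fitted size depends on the settings of the fit, and it ran from 2.58 to 4.92 when single rats were left out. After PZH it was -2.36 ± 0.52 against the DEN model (adjusted p = 0.021 in edgeR's test).

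Of the 6 genes that were higher in the DEN model group, all 6 were lowest in M17 among the DEN model rats, 4 were highest in M13 and 2 in M24. Leaving M17 out kept 7 of 8 genes called in both comparisons with the DEN model group. M17 is also the DEN model rat with the highest hepatocyte marker sum, as given above, and the part of cell composition in this order was not tested.

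**Figure D3:**
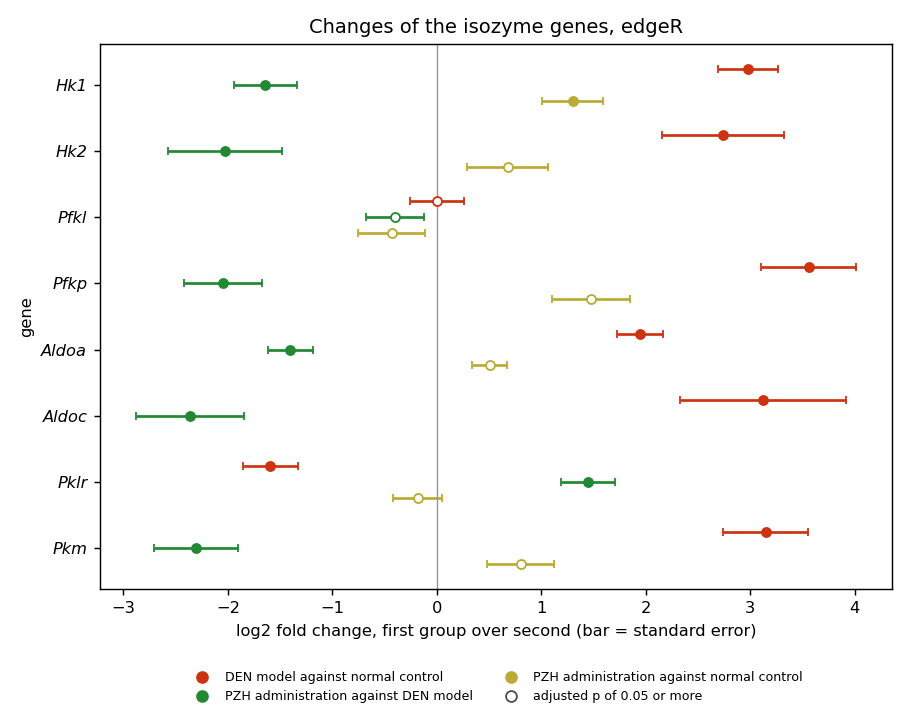
Log2 fold change of each isozyme gene in the 3 comparisons, first group over second, with bars for the standard error; filled circles were called. Pklr lies opposite to Hk1, Hk2, Pfkp, Aldoa, Aldoc and Pkm in both comparisons with the DEN model, and Pfkl lies near 0 in the first; Aldoc has no point in the third.

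The isozyme pairs were then compared within each rat, as the log2 ratio of FPKM + 0.01, in which library scaling cancels where both values are well above the pseudocount, as those of Aldoc are not. Pkm to Pklr was -2.96, -3.20 and -3.54 in N1, N12 and N3, 1.97, 0.01 and 2.26 in M13, M17 and M24, and -2.02, -2.19 and -2.61 in G27, G28 and G42. On this scale the ratio was thus below 0 in all normal control and PZH administration rats. It was above 0 in the DEN model rats, though barely so in M17. Before scaling for length M17 had 389 Pkm and 772 Pklr counts, so the sign of its ratio rests on the length scaling. An exact permutation test over all assignments of the 9 rats to 3 groups of 3 gave p = 0.0036 (adjusted p over the 4 pairs = 0.0071), the smallest p this test can give. The mean ratio was 25.1-fold higher in DEN model than in normal control rats, a log2 difference of 4.65 ± 0.73 (SE). It was 12.9-fold lower after PZH than in the DEN model (-3.69 ± 0.73), and 1.95-fold higher after PZH than in normal control rats (0.96 ± 0.25). With LOC100364062 counted as Pkm, the PZH administration and normal control rats overlapped in this ratio. Over single rats left out, the first log2 difference ran from 4.23 to 5.35 and the second from -4.39 to -3.26. The largest sizes, 5.35 and -4.39, were those without M17.

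Pfkp to Pfkl was -5.03, -4.08 and -4.27 in N1, N12 and N3, -0.50, -1.85 and -0.71 in M13, M17 and M24, and -2.92, -2.28 and -2.26 in G27, G28 and G42. No pair of groups overlapped, and the ratio stayed below 0 in every rat. The exact permutation test over the 3 groups gave p = 0.0036 again (adjusted p = 0.0071). The mean ratio was 10.9-fold higher in DEN model than in normal control rats (log2 difference 3.44 ± 0.51), 2.77-fold lower after PZH than in the DEN model (-1.47 ± 0.47) and 3.93-fold higher after PZH than in normal control rats (1.97 ± 0.36). For Pkm to Pklr and for Pfkp to Pfkl, each pair of groups gave a two-sided exact permutation p of 0.1, the smallest that 3 rats against 3 allow.

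The other pairs did not pass the test over the 3 groups. Hk2 to Hk1 averaged -1.38 ± 0.62 (SD, n = 3) in normal control, -1.81 ± 1.22 in DEN model and -1.93 ± 0.16 in PZH administration rats (exact permutation p = 0.68 over the 3 groups, adjusted p = 0.68). The DEN model rats spanned -2.68 to -0.42, wider than the other groups together. The difference of DEN model from normal control rats was -0.43 ± 0.79 (SE), and leaving out M13 turned its sign. Aldoa to Aldoc averaged 10.10 ± 1.62 (SD), 8.51 ± 0.21 and 9.46 ± 0.64 (exact permutation p = 0.2 over the 3 groups, adjusted p = 0.26). Only PZH administration and DEN model rats did not overlap in this ratio, which was 1.93-fold higher after PZH (log2 difference 0.95 ± 0.39, SE, exact permutation p = 0.1). With a pseudocount of 0.1 in place of 0.01 its differences of the DEN model and of the PZH administration from the normal control group turned in sign, and without N1 the 3-group exact permutation p was 0.018.

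**Figure D4:**
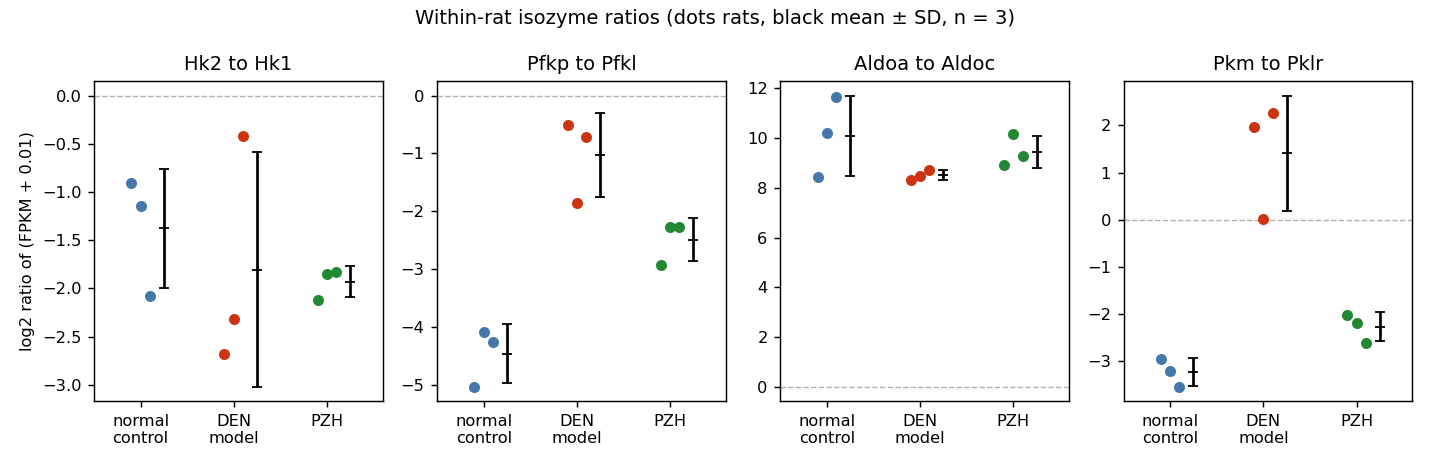
Within-rat log2 ratio of FPKM + 0.01 for each isozyme pair in the 3 groups, with 1 dot per rat and the mean ± SD beside it (n = 3); the dashed line marks equal levels. Pkm to Pklr crosses the line in the DEN model rats only, with M17 on it at 0.01, and Pfkp to Pfkl separates all 3 groups below the line.

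By FPKM, the order of the isozyme genes also differed between groups. FPKM values carry the library totals, so those below rank genes within a group and do not give changes between groups. Aldoa ranked first in each, at 36.8 ± 4.4 (SD, n = 3) in normal control, 260 ± 80 in DEN model and 61.0 ± 5.4 FPKM in PZH administration rats, and Aldoc ranked last. In normal control rats Pfkl (12.98 ± 4.80) and Pklr (12.5 ± 3.2) followed with overlapping ranges, then Pkm (1.33 ± 0.40) and Hk1 (1.07 ± 0.14), overlapping, and Pfkp (0.582 ± 0.253) and Hk2 (0.434 ± 0.180), overlapping. In DEN model rats the ranges of neighbours overlapped from the second place to the seventh, with Pfkl at 23.2 ± 4.1, Pkm at 22.1 ± 11.9, Hk1 at 15.6 ± 6.3, Pfkp at 12.8 ± 7.1, Pklr at 7.29 ± 1.13 and Hk2 at 5.48 ± 4.89 FPKM. In PZH administration rats Pklr (12.8 ± 2.2) and Pfkl (10.9 ± 3.6) were again next to Aldoa, followed by Hk1 (3.08 ± 0.82) and Pkm (2.66 ± 0.67), overlapping, and then by Pfkp (1.88 ± 0.09) and Hk2 (0.803 ± 0.243).

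Of 13 further glycolytic genes with a row, Hk3 and Pfkm among them, 5 were called between DEN model and normal control rats in edgeR's test, beside 45.8% of all tested genes. Eno2, the neuronal enolase, Ldhb, a lactate dehydrogenase subunit that favours forming pyruvate, Pfkm and Gpi, the glucose 6-phosphate isomerase, were higher, and Ldha was lower. The 13 genes had a median log2 fold change of 0.47, against 2.86 for the 8 isozyme genes and 0.03 over all tested genes. The enzymes without a liver isozyme Tpi1 (-0.22 ± 0.18), Pgk1 (-0.36 ± 0.19) and Gapdh (0.23 ± 0.19) did not pass the test, with adjusted p of 0.35, 0.16 and 0.34 in edgeR's test.

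Lactate dehydrogenase, which reduces pyruvate to lactate, was a further pair of isozyme genes with opposite signs. Ldha was at 2040, 1931 and 2038 CPM in N1, N12 and N3, at 495, 628 and 451 CPM in M13, M17 and M24, and at 908, 934 and 1077 CPM in G27, G28 and G42. No pair of groups overlapped, and PZH administration rats stayed 2.05-fold below normal control rats (log2 fold change -1.04 ± 0.21, adjusted p = 0.024 in edgeR's test). The log2 fold change was -1.92 ± 0.29 in DEN model against normal control rats (adjusted p = 0.0012 in edgeR's test). Ldhb was higher in the DEN model, by 1.92 ± 0.33 (adjusted p = 0.0023 in edgeR's test), and lower after PZH (-1.21 ± 0.26, adjusted p = 0.021). After PZH 3 of the 13 genes were called against the DEN model, Ldha higher (0.91 ± 0.25, adjusted p = 0.037 in edgeR's test) and Ldhb and Pfkm lower, and 1 against normal control, Ldha. Over all tested genes 19.1% were called against the DEN model and 5.21% against normal control.

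Of 6 carriers of glucose and lactate, edgeR's test called 5 between DEN model and normal control rats, beside 45.8% of all tested genes. Slc16a3, a lactate exporter of glycolytic cells (2.86 ± 0.72 on the log2 scale, adjusted p = 0.012), and Slc2a3, a high-affinity glucose carrier (2.82 ± 0.90, adjusted p = 0.032), were higher. Slc2a2, the glucose carrier of hepatocytes (-1.12 ± 0.37, adjusted p = 0.034), Slc16a1 (-1.05 ± 0.21, adjusted p = 0.0039) and Slc16a7 (-0.93 ± 0.24, adjusted p = 0.014) were lower. Slc16a3 and Slc2a3 had mean levels of 0.438 and 0.194 CPM in normal control rats, close to the floor. After PZH 2 were called against the DEN model, Slc16a3 lower (-2.32 ± 0.63, adjusted p = 0.039 in edgeR's test) and Slc16a7 higher (0.79 ± 0.23, adjusted p = 0.046). That comparison called 19.1% of all tested genes. Against normal control 0 of 4 tested were called, beside 5.21% of all tested genes. Of the 4, 0 had an unadjusted p below 0.05 in edgeR and DESeq2 called 0.

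Among 8 genes with a row for enzymes that act in the control of glycolysis, in gluconeogenesis or on pyruvate dehydrogenase, edgeR's test called 7 between DEN model and normal control rats. The share over all tested genes was 45.8%. Pfkfb1, the liver enzyme that makes and removes fructose 2,6-bisphosphate, changed by -2.13 ± 0.29 and 2.15 ± 0.29 (adjusted p of 0.00082 and 0.0089 in edgeR's test). Pdk3 and Pdk4 are kinases that shut off pyruvate dehydrogenase, and they moved in opposite directions: Pdk3 was higher (3.001 ± 0.295, adjusted p = 0.00023) and Pdk4 lower (-3.06 ± 0.33, adjusted p = 0.00033) in the DEN model in edgeR's test. Pdk1, Pdk2 and Fbp1, the gluconeogenic phosphatase, were also lower and Pfkfb2 higher. After PZH 5 were called against the DEN model, Pfkfb1, Pdk1 and Pdk4 higher and Pdk3 and Pfkfb3 (-1.94 ± 0.51, adjusted p = 0.034 in edgeR's test) lower, and 2 against normal control, Pdk3 higher (1.72 ± 0.38, adjusted p = 0.036 in edgeR's test) and Pdk4 lower (-1.40 ± 0.33, adjusted p = 0.045). Over all tested genes the shares were 19.1% against the DEN model and 5.21% against normal control.

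Of 9 transcription and splicing factors with a row, edgeR's test called 5 between DEN model and normal control rats. Beside them stand 45.8% of all tested genes. Myc (0.88 ± 0.24, adjusted p = 0.016) and the splicing factor Hnrnpa1 (0.81 ± 0.18, adjusted p = 0.007) were higher. Hnf4a (-1.64 ± 0.29, adjusted p = 0.0024), a factor of hepatocyte identity, was lower, as were Srebf1 (-1.36 ± 0.30, adjusted p = 0.0072) and Mlx (-0.92 ± 0.18, adjusted p = 0.0038), the partner of the carbohydrate response factor. The mRNA of Hif1a (-0.23 ± 0.24, adjusted p = 0.45 in edgeR's test) and of Ptbp1 (-0.08 ± 0.22, adjusted p = 0.8) did not pass the test. After PZH Srebf1 (1.32 ± 0.32, adjusted p = 0.027 in edgeR's test), Hnf4a (1.11 ± 0.27, adjusted p = 0.026) and Mlx (0.64 ± 0.17, adjusted p = 0.038) were higher than in the DEN model. These 3 of 9 stand beside 19.1% of all tested genes. Against normal control 0 of 9 were called in edgeR, beside 5.21% of all tested genes. Of the 9, 3 had an unadjusted p below 0.05 in edgeR and DESeq2 called 1.

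**Figure D5:**
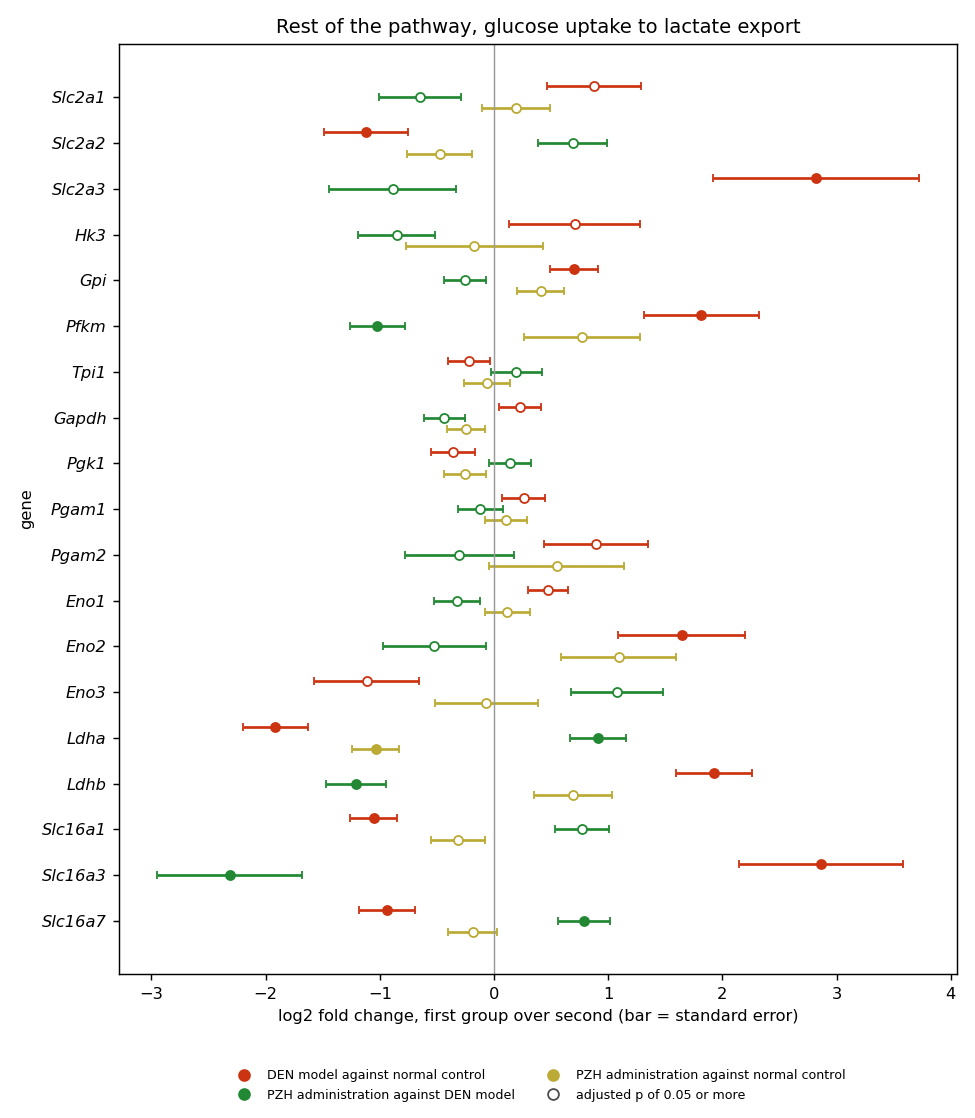
Log2 fold change of the other glycolytic genes and carriers, from glucose uptake at the top to lactate export at the foot, in the 3 comparisons; bars are standard errors and filled circles were called. Slc16a3 and Slc2a3 lie farthest to the right in the first comparison, at 2.86 and 2.82, while Tpi1, Gapdh, Pgk1 and Pgam1 have unfilled circles near 0.

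Genes whose pattern over the 9 rats was nearest to each isozyme gene were found among 12837 genes, by the root mean square difference of log2(CPM + 1) after centring. For Pklr they were Fggy (0.111) and Upb1 (0.138), for Pkm Itga3 (0.216) and Impdh1 (0.234), for Pfkp Sfn (0.187) and Pcyox1l (0.192), and for Pfkl Ssbp3 (0.128) and Rpl28 (0.135). For Hk1 they were Colec12 (0.178) and Cx3cr1 (0.183), for Hk2 Itgb7 (0.244) and Adap1 (0.270), for Aldoa Lgmn (0.108) and Shtn1 (0.130), and for Aldoc G6pc3 (0.125) and Tbrg1 (0.130). The values share libraries, depth and group structure, and they describe likeness of levels only. On this scale the range over the rats was 1.11 for Pfkl and 1.52 for Aldoc, against 3.87 for Hk2. The distances are therefore not comparable between isozyme genes, and the added 1 CPM flattens the profile of the scarce Aldoc.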

How the data were processed

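Liver RNA of 9 rats was sequenced, 1 library per rat and 3 rats per group. The authors deposited 1 table with whole-number read counts per gene and rat, not normalized, and FPKM values, which they scaled for length and library size. Per the submitters' processing notes the tools were fastp, HISAT2 2.1.0, StringTie 1.3.3b and edgeR 3.30.3. The genome build and the strand setting of the counting are not given in the sources used here. The table's group means, log2 fold changes, P and Q values are the authors' own comparisons and were not used.

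Counts were tested in R 4.3.3 with edgeR 4.0.16 (filterByExpr, TMM factors, the quasi-likelihood fit and its F test), using the 6 rats of the groups compared and no covariates, with Benjamini-Hochberg adjustment over all tested genes and calls at an adjusted p under 0.05. SEs of log2 fold changes were obtained from the quasi-likelihood F. Total counts of 14922973 to 27161496 per rat limit the precision of scarce genes such as Aldoc. Isozyme ratios were taken as log2 of (FPKM + 0.01) within a rat and compared with two-sided exact permutation tests, adjusted over the 4 pairs. In each comparison of 2 groups the adjusted p of the ratios was no lower than 0.133.

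Promoter windows are RefSeq sequences of build GRCr8. All 8 genes were named. From lists of other glycolytic genes, carriers, flux enzymes and regulators, counts were given with values for the same 4 enzyme families and for the 2 largest called changes per list and comparison, and values of further listed genes were added after seeing them. The 2 nearest profiles per gene were sought among genes with an official symbol and at least 10 counts in 3 rats. Some listed genes are not reported here. The Pkm copy was singled out after its counts were seen. The genes and lists were chosen with earlier results of these data known. In simulated counts of DEN model and normal control rats, 200 of 14098 genes were given a log2 change of 3. Of these edgeR recovered 199 (99.5%) with 7 false calls, and DESeq2 199 with 19. Recovery with a share of changed genes as large as the 45.8% called between these groups was not tested. The changed genes were drawn only from genes above a minimum mean count, so recovery of scarce genes such as Aldoc was not tested. Every simulated gene had the same dispersion between rats, so the wider spread of single genes in the DEN model rats was not reproduced.

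The alternatives were DESeq2 1.42.0, library totals without TMM, no count filter, at least 10 counts in every rat, all 9 rats in 1 fit, the study's thresholds, a pseudocount of 0.1 FPKM, count-based ratios, and leaving out each rat in turn. Counting Pkm with its copy and the alternatives of the 3-group ratio tests were chosen after seeing the data.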

Additional observations from a re-analysis of the deposited data

How the results depend on the processing

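The sign of the called changes of the isozyme genes held under every alternative run. The study's thresholds in place of the adjusted p gave, for DEN model against normal control, 3 isozyme genes, 0 other glycolytic genes and 1753 genes in all, for PZH administration against DEN model 2, 0 and 347, and for PZH administration against normal control 0, 0 and 310. Of the other glycolytic genes, 7, 6 and 1 had an unadjusted p below 0.05 in edgeR and DESeq2 called 6, 3 and 1. Library totals gave 11 of the other glycolytic genes in the first comparison, 7 of them and 6252 genes (556 higher, 5696 lower, against 1245 and 1477) in the second, and 2 isozyme genes in the third. DESeq2 called 2 isozyme genes and 1320 genes in all in the third comparison, and a minimum of 10 counts in every rat left 340. The log2 fold change of Pfkl between DEN model and normal control rats was -0.019 with all 9 rats in 1 fit, -0.10 without M13, -0.0082 without M17 and -0.25 without N3 (range over single rats left out -0.25 to 0.17), and that of Pklr after PZH against normal control was 0.037 with library totals. The Aldoa to Aldoc ratio differed by 0.26 (DEN model) and 0.34 (PZH administration) from normal control with a pseudocount of 0.1, and by 0.14 after PZH without N3 (range -1.47 to 0.14). The Hk2 to Hk1 difference was 0.0067 without M13 (DEN model against normal control, range -1.12 to 0.0067) and 0.57 without M24 (PZH administration against DEN model, range -0.56 to 0.57).

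Leaving out single rats, DEN model against normal control gave 6 to 7 isozyme genes, 2 to 5 other glycolytic genes (2 without M13 and without N1) and 4724 to 6790 genes in all. PZH administration against DEN model gave 0 to 7, 0 to 3 and 271 to 3319, the lowest each without M13 (for the other glycolytic genes also without G42). PZH administration against normal control gave 0 to 1, 0 to 1 and 207 to 1326 (lowest without N1, highest without G27). The 3-group exact permutation p was 0.0036 to 0.0071 for Pkm to Pklr and for Pfkp to Pfkl, 0.1 to 0.95 for Hk2 to Hk1 and 0.018 to 0.39 for Aldoa to Aldoc. The causes of these changes were not tested, and each of these fits also had fewer rats. With Pkm counted with its copy, the 3-group exact permutation p of Pkm to Pklr was 0.0071, and PZH administration and normal control rats overlapped. No paired analysis was possible because the groups consist of different rats. Depth limits Aldoc, Slc2a3 and Slc16a3, which had few counts in normal control rats.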
